A study of Mus musculus with 9 samples.

Results

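TRIM proteins are a family of ubiquitin ligases, and their transcripts were followed in mouse bone marrow-derived macrophages before and after a bacterial stimulus. The genes were taken by name: every row of the expression table whose Ensembl identifier maps to a symbol made of Trim, a number and at most 1 letter. This gave 36 of the 12204 genes in the table; of the 68 such symbols in the GENCODE M21 annotation the other 32 were not analysed here. The macrophages came from C57/Bl6J marrow grown for 6 days in 20% L929-conditioned supernatant, a source of macrophage growth factor, and all 3 groups share this strain and culture. In the LPS + BMS303141 group, cells received 50 µM BMS303141, an inhibitor of ATP-citrate lyase, for 1 h and then 10 ng/ml lipopolysaccharide (LPS, a bacterial wall component sensed by Toll-like receptor 4) for 4 h. The LPS group received the same LPS without inhibitor, and the untreated group received neither. Each group had 3 libraries of 3′-end messenger RNA. Every inhibitor library also had LPS, and no vehicle is named, so nothing here measures the inhibitor by itself. Since no label ties replicates to separate mice or cultures, the p-values cover the spread between these 9 libraries and no more, and that spread may be technical.

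Most TRIM proteins carry a RING domain that transfers ubiquitin, 1 or more B-box zinc fingers and a coiled coil through which they pair, followed by a variable C-terminal part that chooses the target. Many members with a C-terminal PRY-SPRY domain restrict viruses or tune the signalling of pattern-recognition receptors, and several are induced by type I interferon, which macrophages make after Toll-like receptor 4 is engaged. Interferon acts through the factor ISGF3, which binds an interferon-stimulated response element (ISRE) in target promoters. In rodents the relatives of Trim5, a retroviral restriction factor in primates, have multiplied into a cluster on chromosome 7.

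The libraries held about 3.56 to 3.74 M (mega) reads in the LPS + BMS303141 group, 1.83 to 3.19 M in the LPS group and 3.22 to 5.05 M in the untreated group, as estimated from the steps between their values. LPS replicate 1 was the shallowest and lay apart on the second principal component (-63.1, the other libraries at -18.0 to 26.0), so counts are also given without it. All 7 macrophage markers were in the table. They summed to 3985 to 4099 CPM (read counts scaled to a common library total) with LPS + BMS303141. The sums were 3754 to 4245 CPM with LPS and 7902 to 8539 CPM in untreated cells. Between LPS and untreated libraries 6 of the 7 were lower (limma, adjusted p under 0.05), from -0.37 log2 CPM for Itgam to -4.14 for Mertk. Adgre1 differed by 0.07 (adjusted p = 0.692), so the sum does not stand for every marker. Of the other marker lists, neutrophil genes (2 of 7 listed, S100a8 and S100a9, while Ly6g, Elane, Mpo, Camp and Ltf had no row) summed to 172 to 264 CPM with the inhibitor and LPS, 33.9 to 60.9 CPM with LPS and 7.81 to 29.6 CPM untreated. The dendritic cell list was represented by Itgax alone of 4, at 4.77 to 5.36 CPM with the inhibitor and LPS, 13.5 to 22.5 CPM with LPS and 3.04 to 4.19 CPM untreated. Stromal genes (4 of 5) and Lck (the 1 lymphocyte gene of 5) summed to at most 23.7 and 7.53 CPM in any library, and none of 5 mast cell and erythroid genes was listed. In bulk RNA, fewer cells of a type and less RNA per cell cannot be told apart.

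Together the 36 TRIM transcripts made up 1080, 1067 and 1033 CPM in the LPS + BMS303141 libraries, 1440, 1414 and 1371 CPM in the LPS libraries and 977, 1031 and 1096 CPM in untreated libraries. The LPS libraries were all above the other 6, which overlapped. Because a 3′ tag is counted once per transcript, levels of different genes can be set side by side without dividing by length. Trim56, a ligase of antiviral signalling, was the most abundant member in all 9 libraries, with a mean of 8.17 log2 CPM. It was followed by Trim30a at 6.96, Trim25, the ligase that activates the RNA sensor RIG-I, at 6.49, and Trim30d at 5.90 log2 CPM. At the other end Trim68, Trim7 and Trim2 averaged 0.03, 0.38 and 0.69 log2 CPM, where a value rests on a few reads. All 36 members passed the filter on low values, that is, they reached a log2 CPM of 0 or more in 3 or more of the 9 libraries.

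**Figure D1:**
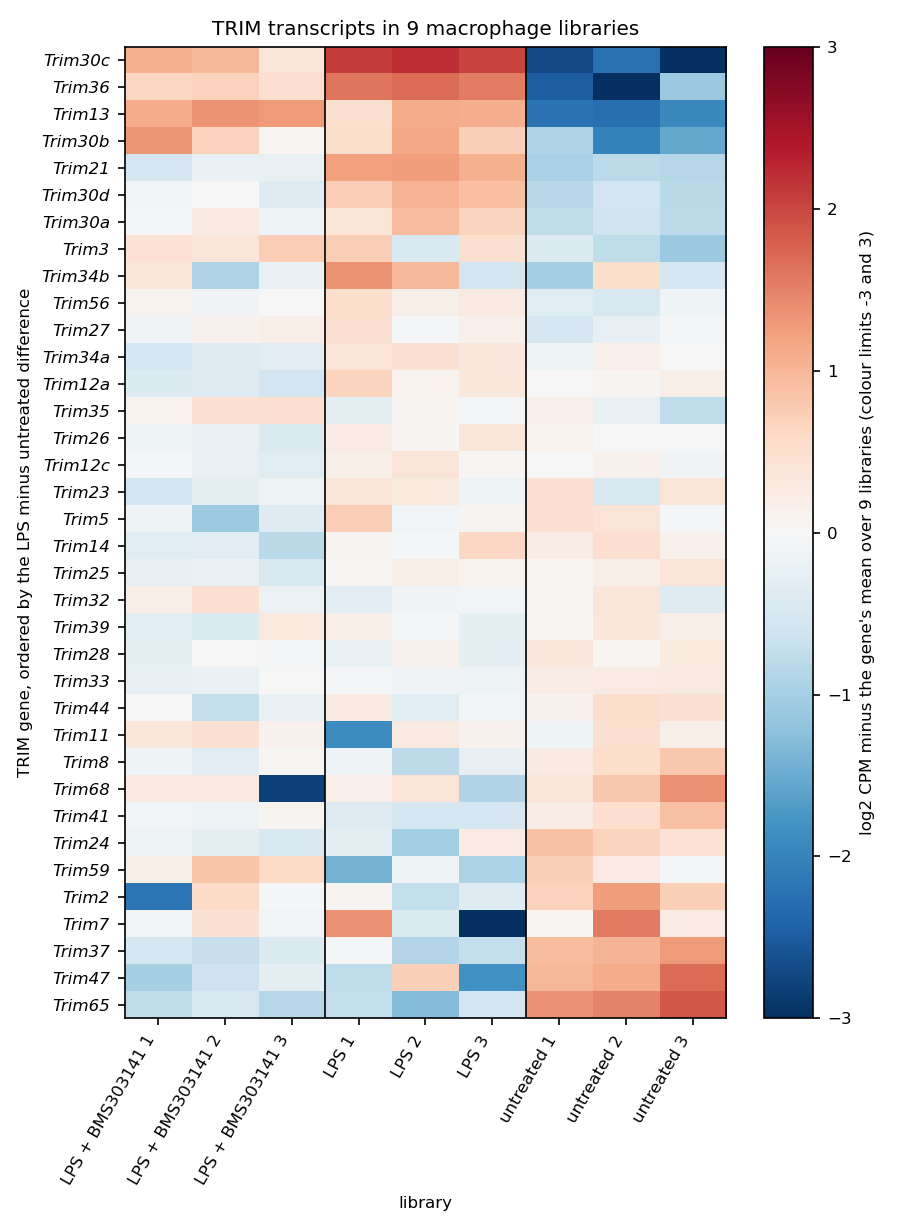
Log2 CPM of the 36 TRIM transcripts in each of 9 libraries (columns, grouped by treatment), shown as the difference from the gene's mean over all libraries, with rows ordered by the LPS minus untreated difference. Trim30c, Trim36, Trim13 and Trim30b at the top are low in the 3 untreated columns, and Trim65, Trim47 and Trim37 at the bottom are high there.

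In the mouse genome 10 TRIM genes lie within 289 kb on chromosome 7 (104218793 to 104507849, GRCm38). In order they are Trim6, Trim34a, Trim5, Trim12a, Trim34b, Trim12c, Trim30b, Trim30c, Trim30a and Trim30d, and all but Trim6 were in the table. Trim21 (chromosome 7, 102557921 to 102565486, minus strand), the cytosolic antibody receptor, lies outside this cluster. The 300-base promoter windows given here belong to the genes called lower in LPS + BMS303141 than in LPS, and to Trim30c from the cluster. They are printed because all but Trim30c hold the core letters of an ISRE. Sequences are from RefSeq (GRCm38.p6) and run from 250 bases before the transcription start to 50 after it. Capitals mark the core, GAAA and GAAA with 2 bases of any kind between them, which on the other strand reads TTTC and TTTC. The windows are chr7:102565433-102565732 (minus strand) for Trim21, chr7:104465144-104465443 (minus strand) for the second annotated start of Trim30a and chr7:104507800-104508099 (minus strand) for Trim30d. They are chr7:104244207-104244506 (plus strand) for Trim34a, chr7:104315446-104315745 (minus strand) for Trim12a and chr7:104400729-104401028 (minus strand) for Trim30c.
Trim21: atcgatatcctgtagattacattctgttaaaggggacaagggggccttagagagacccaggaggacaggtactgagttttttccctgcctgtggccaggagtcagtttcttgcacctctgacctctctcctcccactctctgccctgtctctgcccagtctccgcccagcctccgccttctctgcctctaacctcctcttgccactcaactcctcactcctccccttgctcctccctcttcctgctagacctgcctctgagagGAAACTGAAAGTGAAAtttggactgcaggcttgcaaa
Trim30a: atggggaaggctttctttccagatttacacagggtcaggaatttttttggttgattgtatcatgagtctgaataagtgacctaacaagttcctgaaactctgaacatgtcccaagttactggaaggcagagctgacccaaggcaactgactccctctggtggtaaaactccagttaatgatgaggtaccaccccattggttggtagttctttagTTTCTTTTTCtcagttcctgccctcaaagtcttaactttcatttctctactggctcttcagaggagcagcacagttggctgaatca
Trim30d: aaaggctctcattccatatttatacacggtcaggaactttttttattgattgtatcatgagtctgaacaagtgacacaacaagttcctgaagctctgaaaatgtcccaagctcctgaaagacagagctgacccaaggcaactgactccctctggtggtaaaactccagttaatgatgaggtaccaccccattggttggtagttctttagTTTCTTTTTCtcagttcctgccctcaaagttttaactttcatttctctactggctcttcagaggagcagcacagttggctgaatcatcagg
Trim34a: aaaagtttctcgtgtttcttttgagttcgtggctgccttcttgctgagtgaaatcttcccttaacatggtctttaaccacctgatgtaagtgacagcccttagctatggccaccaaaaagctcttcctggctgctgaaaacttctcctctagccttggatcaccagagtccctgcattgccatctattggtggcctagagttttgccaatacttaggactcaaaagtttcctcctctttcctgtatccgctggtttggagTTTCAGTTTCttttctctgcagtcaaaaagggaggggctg
Trim12a: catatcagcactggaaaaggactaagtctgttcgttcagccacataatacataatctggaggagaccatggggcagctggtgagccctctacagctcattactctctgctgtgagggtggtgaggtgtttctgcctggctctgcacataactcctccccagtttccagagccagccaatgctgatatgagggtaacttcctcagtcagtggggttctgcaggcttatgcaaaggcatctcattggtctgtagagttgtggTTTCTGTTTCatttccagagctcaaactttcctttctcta
Trim30c: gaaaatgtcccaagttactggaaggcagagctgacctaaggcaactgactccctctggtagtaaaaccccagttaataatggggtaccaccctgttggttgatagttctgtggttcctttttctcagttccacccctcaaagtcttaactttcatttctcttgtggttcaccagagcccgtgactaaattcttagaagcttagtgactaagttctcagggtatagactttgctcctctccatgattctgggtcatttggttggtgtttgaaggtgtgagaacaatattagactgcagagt

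The core sat near the transcription start in these windows. In Trim21 2 overlapping matches began at bases 14 and 20, counting the start as 1, while in Trim34a and Trim12a the match began at base 11. In Trim30a (second start) and Trim30d it began 36 and 41 bases before the start. To compare the Trim30 genes, the core of Trim30a was taken with 10 bases on each side and matched without gaps to the other Trim30 windows. Capitals mark positions 11 to 20, the core of Trim30a, counted from 1 at the 5′ end of the 30 bases.
Trim30a: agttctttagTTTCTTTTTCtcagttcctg
Trim30d: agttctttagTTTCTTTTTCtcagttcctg
Trim30c: agttctgtggTTCCTTTTTCtcagttccac
The Trim30d stretch had 0 differences from Trim30a. The best Trim30c stretch had 5, written as the Trim30a base, the position and the Trim30c base: T7G, A9G, T13C, T29A and G30C, of which 1 lies within the core. That stretch begins 147 bases before the annotated Trim30c start. The first annotated start of Trim30a had 4 differences, A1T, G2T, T3G and C5T, all outside the core. The best stretch of the Trim30b window had 15 and is not shown. That window (chr7:104358597-104358896) lies inside the gene (104355382 to 104369884, minus strand), so the 5′ end of Trim30b was not compared.

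After LPS, TRIM members moved in both directions, as did genes at large. Of 36 members, 11 were higher in LPS than in untreated macrophages and 7 lower (limma, adjusted p under 0.05 over 12196 genes tested), beside 21.5% and 25.4% of all genes tested, and 18 were not called. The share called in either direction, 50%, was near the 47% of all genes, and the groups did not overlap for 19 members, 52.8%, beside 52.6% of all genes. The median difference was -0.06 on the log2 scale for the members and for all genes alike, while the median size was 0.92 for the members and 0.60 for all genes. The largest rises were in the Trim30 genes, Trim36, Trim13 and Trim21, and the largest falls in Trim65, Trim47 and Trim37.

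All 4 Trim30 genes in the table were higher after LPS. Trim30c had 5.94, 6.07 and 5.87 log2 CPM in the LPS libraries, against 1.15, 1.61 and 0.02 in untreated libraries, a rise of 5.04 (SE 0.33, 32.9-fold, adjusted p = 3.78e-08). The untreated libraries were low and uneven, at 12, 13 and 3 value steps above the lowest value of their library, so the fold rests on few reads there. Trim30b had 1.75, 2.39 and 1.96 log2 CPM with LPS and 0.30, -0.79 and -0.30 untreated, a rise of 2.30 (SE 0.45, adjusted p = 0.000922). Its groups did not overlap, but it was among the least abundant members, at 5, 14 and 11 value steps with LPS and 7, 2 and 2 untreated, so its rise rests on a few reads. Trim30d had 6.64, 6.95 and 6.81 log2 CPM with LPS, against 5.04, 5.34 and 5.09 untreated, a rise of 1.64 (SE 0.15, 3.12-fold, adjusted p = 8.33e-07). Trim30a, which in mouse macrophages restrains Toll-like receptor signalling through the adaptors TAB2 and TAB3, had 7.38, 7.92 and 7.62 log2 CPM with LPS and 6.20, 6.37 and 6.18 untreated. It rose by 1.39 (SE 0.15, 2.62-fold, adjusted p = 5.03e-06), with every LPS library above every untreated one. The last 500 bases of Trim30a, Trim30b and Trim30d transcripts share no 50-base stretch with any other gene, and those of Trim30c share 0.443% of such stretches with Trim30d.

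Outside the cluster the largest rises were in Trim36, Trim13 and Trim21. Trim36 (chromosome 18, 46165300 to 46212607), a microtubule-binding member and the 1 gene of its COS-domain class in the table, had 5.36, 5.41 and 5.28 log2 CPM with LPS and 1.26, 0.67 and 2.62 untreated. Its rise was 3.83 (SE 0.36, 14.2-fold, adjusted p = 1.56e-06), with LPS libraries close together and untreated ones spread widely. Trim13 (chromosome 14, 61598247 to 61605946), anchored in the endoplasmic reticulum membrane, had 3.97, 4.60 and 4.57 log2 CPM with LPS, against 1.26, 1.22 and 1.56 untreated, a rise of 3.03 (SE 0.22, 8.18-fold, adjusted p = 1.21e-07). The groups were far apart, although 10.2% of the 50-base stretches at its 3′ end also occur in Gm9359, and it overlaps Dleu2 on the opposite strand. Trim21 had 5.49, 5.52 and 5.34 log2 CPM with LPS and 3.31, 3.49 and 3.42 untreated, a rise of 2.05 (SE 0.16, 4.13-fold, adjusted p = 2.98e-07). Within each group its libraries lay close together.

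Smaller rises were found in Trim3, Trim56, Trim27 and Trim34a. Trim3, a member with NHL repeats known from endosomal transport, had 4.31, 3.12 and 4.07 log2 CPM with LPS and 3.17, 2.80 and 2.46 untreated; the groups overlapped, and the rise of 1.02 (SE 0.30, adjusted p = 0.0122) lost its call without LPS replicate 3 (adjusted p = 0.0511). Trim56 had 8.70, 8.34 and 8.44 log2 CPM with LPS, against 7.80, 7.70 and 8.03 untreated, and rose by 0.65 (SE 0.12, adjusted p = 0.000771). Trim27, which acts in endosomal recycling, rose by 0.47 (SE 0.18, adjusted p = 0.0474), and Trim34a stood just inside the threshold at 0.40 (SE 0.16, adjusted p = 0.0497). These last calls were fragile: Trim27 and Trim34a were lost under 11 and 13 of 17 alternatives. Just outside the threshold was Trim33 at -0.34 (adjusted p = 0.0562).

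Among the 7 members that fell, Trim65 changed most. Trim65 (chromosome 11, 116121846 to 116131128), reported in human cells as a ligase of the RNA sensor MDA5, had 2.38, 1.81 and 2.55 log2 CPM with LPS, against 4.47, 4.60 and 4.97 untreated. It fell by 2.44 (SE 0.25, 5.42-fold lower, adjusted p = 3.87e-06), and no LPS library came near an untreated one. The transcript end of Trim65 lies within Trim47 on the same strand, so reads there may be lost or given to either gene. Trim37 (chromosome 11, 87127077 to 87220683), which controls centriole number, had 4.46, 3.61 and 3.78 log2 CPM with LPS and 5.44, 5.52 and 5.78 untreated. It fell by 1.63 (SE 0.21, 3.10-fold lower, adjusted p = 3.36e-05), with all LPS libraries below all untreated ones. Trim41 fell by 1.01 (SE 0.17, adjusted p = 0.000236) and Trim8, which lacks a known C-terminal domain, by 0.92 (SE 0.22, adjusted p = 0.00323). Trim41 overlaps Rack1 on the opposite strand, and whether the counting used strand is not given in the sources used here.

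Low counts limited the remaining falls. Trim47 had 0.18, 1.66 and -0.87 log2 CPM with LPS and 1.92, 2.05 and 2.62 untreated, where the LPS libraries held 1, 8 and 1 value steps above the lowest value, and fell by 1.88 (SE 0.58, adjusted p = 0.0175). Trim47 and Trim65 overlap on the same strand of chromosome 11. Trim59, a membrane-spanning member, had 0.18, 1.48 and 0.64 log2 CPM with LPS and 2.31, 1.83 and 1.56 untreated, a fall by 1.13 (SE 0.41, adjusted p = 0.0351). Its groups did not overlap, but the LPS values correspond to 1, 7 and 4 steps. The 3 members with a PHD finger and bromodomain, chromatin cofactors, had 1 call. Trim24 fell by 1.01 (SE 0.31, adjusted p = 0.0161), while Trim28, the corepressor of KRAB zinc finger proteins, stood at -0.34 (adjusted p = 0.114) and Trim33 at -0.34. Without LPS replicate 1 the family had 9 members higher and 8 lower, with Trim27, Trim34a and Trim59 lost and Trim44 and Trim7 gained.

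A list of 15 interferon-inducible TRIM genes, chosen with earlier results of these data known, had 14 in the table. These held 7 of the 11 rises and none of the falls (median difference 0.52, beside -0.06 for all genes). The 7 were the 4 Trim30 genes, Trim21, Trim56 and Trim34a. The other 7 did not pass: Trim34b had 0.92 (adjusted p = 0.230), Trim12a 0.29 (0.207), Trim26 0.20 (0.327) and Trim12c 0.19 (0.306). Trim5, Trim14 and Trim25 had -0.04, -0.08 and -0.10 (adjusted p = 0.924, 0.805 and 0.540). For Trim25 the 95% interval of the difference ran from -0.38 to 0.17. Trim34b shares 44.3% of its 3′ 50-base stretches with Trim34a, so reads of the pair may be split between them or lost. All 9 members of the chromosome 7 cluster in the table are on this list, so list and cluster do not give separate observations. Of these 9, 5 rose and none fell (median 0.92). Of the 27 members elsewhere 6 rose and 7 fell (median -0.34). Among all genes 21.5% rose and 25.4% fell.

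**Figure D2:**
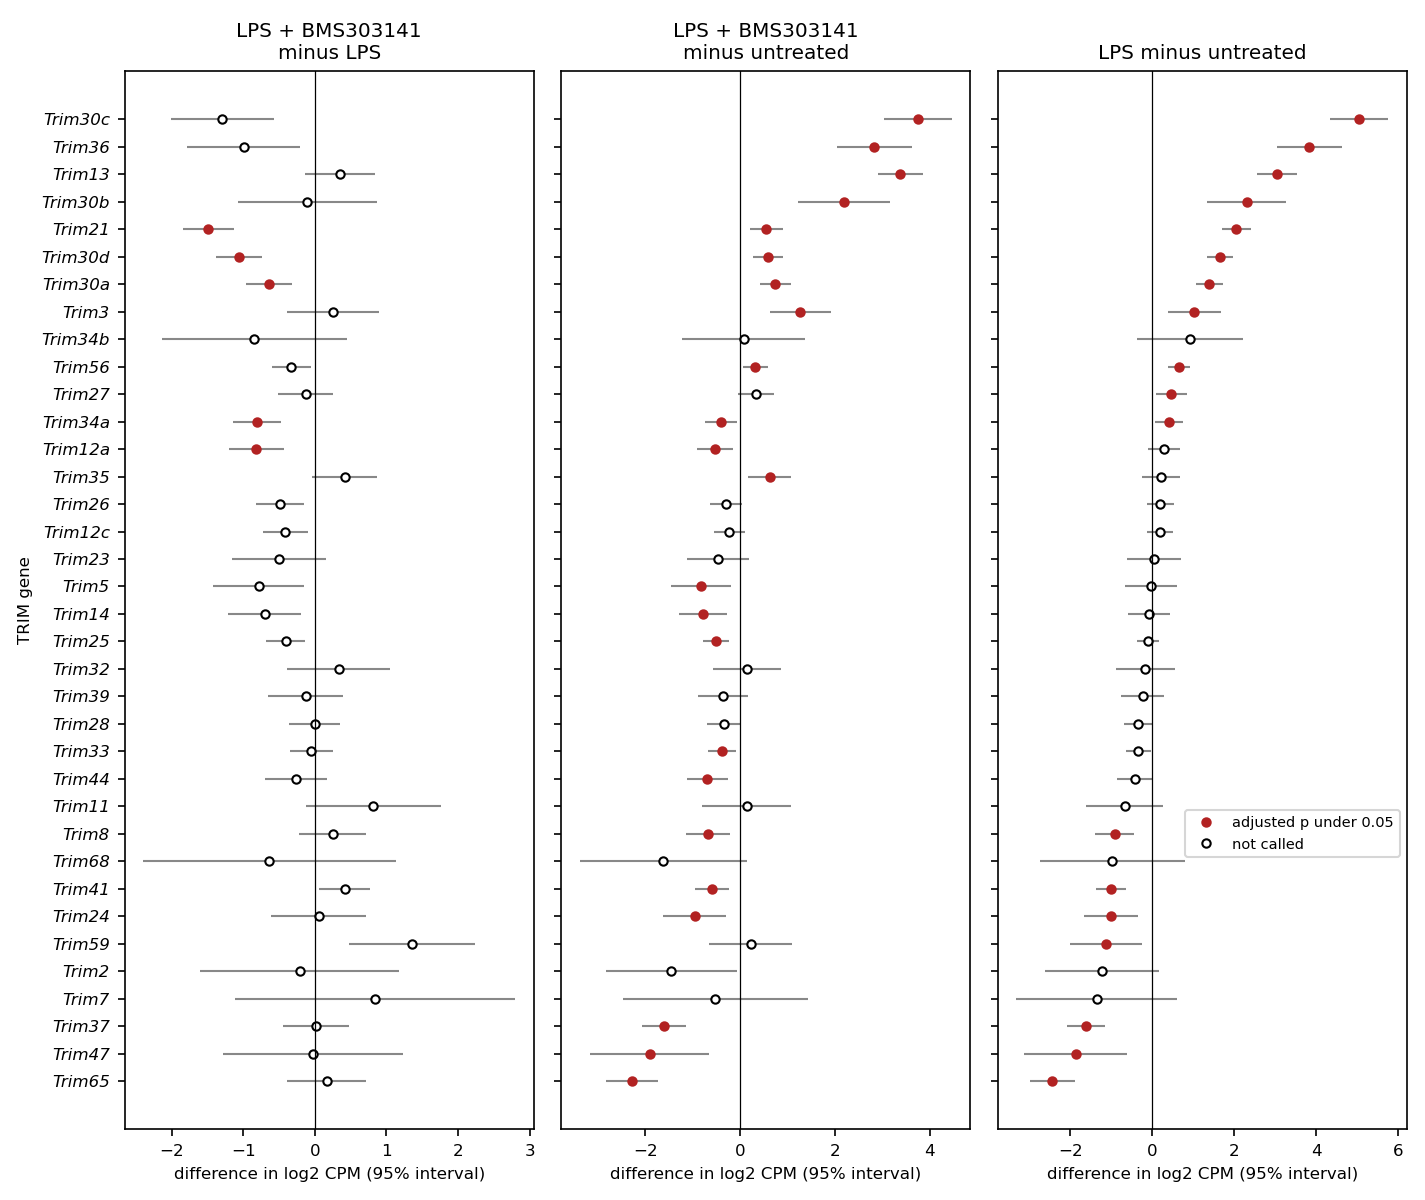
Difference in log2 CPM (points) with its 95% interval (lines, limma) for the 36 TRIM genes in 3 comparisons, with filled points at an adjusted p under 0.05. Each panel has its own axis; the inhibitor panel spans -1.49 for Trim21 to 1.36 for Trim59, while LPS minus untreated spans -2.44 for Trim65 to 5.04 for Trim30c.

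With the inhibitor, no TRIM transcript was called higher than with LPS alone and 5 were lower: Trim21, Trim30d, Trim34a, Trim12a and Trim30a. Across all genes tested 0.959% were called higher and 1.16% lower, 2.12% in either direction. Centring on ribosomal protein genes, applied on top of the deposited scaling, gave 53 higher and 110 lower genes, beside 117 and 141. Counted without a threshold, 24 of 36 members lay below 0 (6158 of all 12196 genes did), with a median of -0.17, beside -0.00 for all genes. The libraries did not overlap for 16 members, 44.4%, beside 21.4% of all genes. At an unadjusted p under 0.05 there were 2 members higher and 13 lower, beside 883 and 937 of the 12196 genes. Leaving out 1 library, 2 members were called lower without inhibitor replicate 1 or 3, 3 without inhibitor replicate 2, LPS replicate 2 or LPS replicate 3, 4 without LPS replicate 1 or untreated replicate 2, and 7 without untreated replicate 3. This comparison shares the LPS libraries with LPS against untreated, so the values of a gene in both are not independent.

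Trim21 differed most. It had 3.76, 4.08 and 4.05 log2 CPM with LPS + BMS303141, against 5.49, 5.52 and 5.34 with LPS alone and 3.31, 3.49 and 3.42 untreated. The inhibitor libraries lay between the other groups without overlapping either, closer to the untreated level. Trim21 fell by 1.49 relative to LPS alone (SE 0.16, 2.80-fold lower, adjusted p = 0.000549), and the call held under all 17 alternatives (adjusted p up to 0.0125). Trim30d had 5.82, 5.89 and 5.51 log2 CPM with the inhibitor and LPS, against 6.64, 6.95 and 6.81 with LPS. It fell by 1.06 (SE 0.15, 2.09-fold lower, adjusted p = 0.00272), with all inhibitor libraries below all LPS libraries, and also kept its call under all 17 alternatives (adjusted p up to 0.0352).

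The 3 smaller calls were, like Trim30d, from the chromosome 7 cluster, while Trim21 lies outside it. Trim34a had 3.97, 4.10 and 4.19 log2 CPM with the inhibitor and LPS, against 4.91, 4.95 and 4.82 with LPS and 4.35, 4.65 and 4.49 untreated. The inhibitor libraries were the lowest of the 9, and Trim34a fell by 0.81 relative to LPS (SE 0.16, adjusted p = 0.0163). Trim12a had 3.94, 3.96 and 3.78 log2 CPM with the inhibitor and LPS, 5.01, 4.46 and 4.67 with LPS and 4.33, 4.42 and 4.53 untreated. Here too the inhibitor libraries were the lowest of the 9, while LPS and untreated libraries overlapped; Trim12a fell by 0.82 relative to LPS (SE 0.18, adjusted p = 0.0298). Trim30a had 6.93, 7.23 and 6.83 log2 CPM with the inhibitor and LPS, against 7.38, 7.92 and 7.62 with LPS, and fell by 0.64 (SE 0.15, adjusted p = 0.0410). The highest inhibitor library stayed below the lowest LPS library. Under the 17 alternatives the call was lost 4 times for Trim34a (adjusted p up to 0.0881), 7 times for Trim30a (up to 0.200) and 10 times for Trim12a (up to 0.146, among them without LPS replicate 1).

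**Figure D3:**
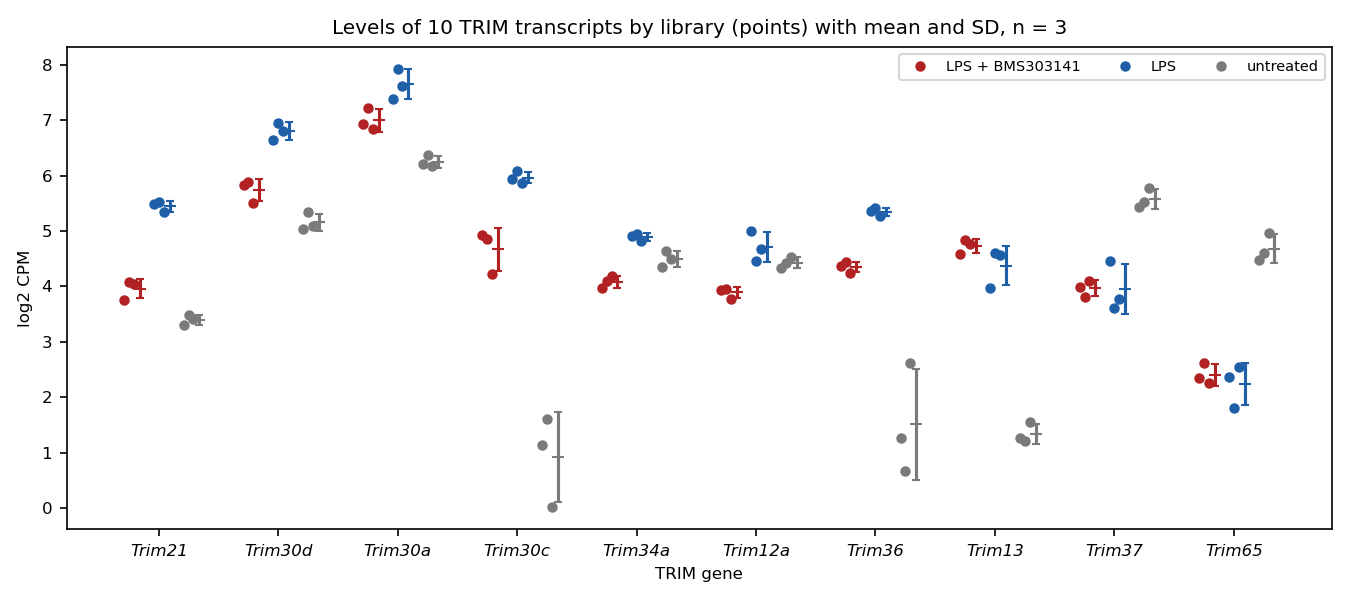
Log2 CPM of 10 TRIM transcripts in each library (points) with the mean and SD of 3 libraries (bars) for LPS + BMS303141, LPS and untreated cells. For Trim21 the inhibitor libraries lie at 3.76 to 4.08, below the LPS libraries at 5.34 to 5.52, while for Trim65 both LPS groups lie below the untreated libraries at 4.47 to 4.97.

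Trim30c, the most LPS-raised member, missed the threshold. It had 4.93, 4.86 and 4.23 log2 CPM with the inhibitor and LPS, against 5.94, 6.07 and 5.87 with LPS, a difference of -1.29 (SE 0.33, adjusted p = 0.0661), and was called lower in 6 of the 17 alternatives. Trim36 had 4.37, 4.44 and 4.25 log2 CPM with the inhibitor, against 5.36, 5.41 and 5.28 with LPS, a difference of -0.995 (SE 0.36, adjusted p = 0.216). In both genes the LPS and inhibitor libraries were apart, and in both the fitted spread includes uneven untreated libraries at a few reads. For Trim13 the direction was the other way, with 4.59, 4.84 and 4.76 log2 CPM with the inhibitor and 3.97, 4.60 and 4.57 with LPS, and overlapping groups. Its difference was 0.35 (95% interval -0.13 to 0.84, adjusted p = 0.495). Trim30b differed by -0.10 (95% interval -1.08 to 0.87).

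The members that LPS lowered showed no call in either direction with the inhibitor. Trim65 had 2.35, 2.63 and 2.25 log2 CPM with the inhibitor and LPS, a difference of 0.16 from LPS alone (95% interval -0.38 to 0.71), and Trim37 had 3.99, 3.81 and 4.09, a difference of 0.02 (-0.44 to 0.48). Trim24 differed by 0.05, Trim47 by -0.03 and Trim8 by 0.25. The positive end of the family was Trim59, with 1.77, 2.42 and 2.18 log2 CPM with the inhibitor and 0.18, 1.48 and 0.64 with LPS. Those groups did not overlap, but the difference of 1.36 (SE 0.41) had an adjusted p of 0.119 and rests on 12, 19 and 15 value steps with the inhibitor and 1, 7 and 4 with LPS. Trim41 was at 5.21, 5.14 and 5.37 log2 CPM with the inhibitor, above all 3 LPS libraries (4.91, 4.76 and 4.81), with a difference of 0.42 (adjusted p = 0.257).

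All 14 listed interferon-inducible members lay below 0 in the inhibitor comparison (median -0.74, beside -0.00 for all genes), and all 5 calls were among them. The list was chosen with earlier results of these data known, so its signs here are not independent evidence. Of the 9 that did not pass, Trim30c and Trim30b are given above, and the others were Trim34b (-0.84), Trim5 (-0.78), Trim14 (-0.70), Trim26 (-0.49), Trim12c (-0.41), Trim25 (-0.41) and Trim56 (-0.33). Their adjusted p ran from 0.136 for Trim25 to 0.546 for Trim34b. In Trim5, Trim14, Trim26, Trim12c, Trim25 and Trim56 the inhibitor and LPS libraries did not overlap. Without inhibitor replicate 3 or LPS replicate 2, 13 of the 14 lay below 0. All 9 members of the chromosome 7 cluster in the table are among these 14, so list and cluster do not give separate observations. In the cluster all 9 lay below 0 (median -0.81) and 4 were called lower, beside 1.16% of all genes. Of the 27 members elsewhere 12 lay above 0 (median -0.03) and 1 was called lower, Trim21. Itgax, the dendritic cell marker in the table, fell by 1.68 in the same comparison (SE 0.27, adjusted p = 0.00587) and S100a8 rose by 2.29 (SE 0.34, adjusted p = 0.00377). S100a9, the other neutrophil gene listed, had a difference of 0.49 (adjusted p = 0.863), so the higher neutrophil sum was that of S100a8 alone. The part of these genes in the TRIM differences was not tested.

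Each member was placed in 1 class only. Trim36 (COS) and Trim14 (no RING domain) were therefore not counted as PRY-SPRY, whatever their C-terminal part. Of the 21 members in the PRY-SPRY class, the larger share of the 36, 7 rose and 3 fell after LPS (21.5% and 25.4% of all genes). With the inhibitor 5 of the 21 fell (1.16% of all genes). Of the 15 members placed in other classes 4 rose and 4 fell after LPS, and whether the classes differ was not tested. The 4 members with another single C-terminal domain had 1 rise (Trim13) and 2 falls (Trim37 and Trim59) after LPS, with Trim23, which has a GTPase domain, at 0.04. Of the 3 NHL members Trim3 rose, while Trim32 had -0.18 and Trim2 -1.23 (adjusted p = 0.135). Neither of the members without a RING domain, Trim14, an adaptor of antiviral signalling at mitochondria, and Trim44, was called with LPS or between the LPS groups.

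Against untreated cells, macrophages given LPS + BMS303141 had 10 TRIM members higher and 13 lower, beside 21.5% and 25.6% of all genes tested, or 63.9% in either direction beside 47.1%. The groups did not overlap for 26 members, 72.2%, beside 59.4% of all genes. The median difference of the members was -0.35, beside -0.05 for all genes. This comparison shares libraries with both others. The members higher were Trim30c (3.75), Trim13 (3.38), Trim36 (2.83), Trim30b (2.19), Trim3 (1.28), Trim30a (0.75), Trim35 (0.62), Trim30d (0.58), Trim21 (0.56) and Trim56 (0.32, adjusted p = 0.0482, just inside the threshold). The lower ones were led by Trim65 (-2.27), Trim47 (-1.91), Trim37 (-1.61) and Trim24 (-0.95). Trim2, at -1.45, was just outside (adjusted p = 0.0815).

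Interferon-inducible members were found on both sides of the untreated level. Trim5 had 3.32, 2.36 and 3.06 log2 CPM with the inhibitor and LPS, against 3.95, 3.85 and 3.42 untreated, and fell by 0.82 (SE 0.29, adjusted p = 0.0339). Trim14 had 3.22, 3.26 and 2.76 log2 CPM with the inhibitor and LPS and 3.80, 4.07 and 3.72 untreated, and fell by 0.78 (SE 0.24, adjusted p = 0.0150). Neither gene's inhibitor libraries overlapped the untreated ones. Trim25 had 6.26, 6.29 and 6.01 log2 CPM with the inhibitor and LPS and 6.55, 6.67 and 6.88 untreated, and fell by 0.51 (SE 0.13, adjusted p = 0.00488). All its inhibitor libraries were below all 6 others. Trim12a and Trim34a were also below untreated, by 0.53 and 0.41 (adjusted p = 0.0252 and 0.0453), as were Trim44 (-0.69), Trim8 (-0.68), Trim41 (-0.59) and Trim33 (-0.39). Many of these calls depended on 1 library: without untreated replicate 2 there were 6 lower in place of 13, and without inhibitor replicate 2, inhibitor replicate 3 or untreated replicate 3 there were 8.

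Promoter letters were set beside the inhibitor difference. A promoter window was found for 28 of the 36 members; Trim3, Trim8, Trim11, Trim14, Trim33, Trim35, Trim36 and Trim65 had none in the table used. The ISRE core, searched on both strands, occurred in the windows of 9 of these 28 genes (32.1%). Among all genes with a window 1079 of 27025 held it (3.99%). A gene counted if any of its windows held the core, which Trim2 had in 1 of 5. That Trim2 window, and the windows of Trim28, Trim30b, Trim44 and Trim47, lie inside the gene, away from its annotated 5′ end. For Trim28, Trim30b, Trim44 and Trim47 the 5′ end itself was not searched. The 9 were Trim2, Trim5, Trim12a, Trim12c, Trim21, Trim26, Trim30a, Trim30d and Trim34a, of which 6 lie in the chromosome 7 cluster and share sequence as neighbours. All of them but Trim2 are also on the interferon-inducible list. All 9 lay below 0 in the inhibitor comparison (median -0.78) and 5 were called lower (1.16% of all genes), which is every member called. Of the 19 without a match 7 lay above 0 (median -0.10) and none was called, the closest being Trim30c. After LPS, 4 of the 9 rose and none fell (median 0.29), beside 21.5% and 25.4% of all genes. Of the 19 others 5 rose and 5 fell (median -0.23), Trim30c and Trim13 among the rises. The NF-kB letters, GGG and TTTCC with 2 bases of any kind between them, occurred in none of the 28 (1.89% of all genes), and the STAT letters TTCNNNGAA in 1, Trim30c (9.55% of all genes), whose window holds neither of the other motifs.

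**Figure D4:**
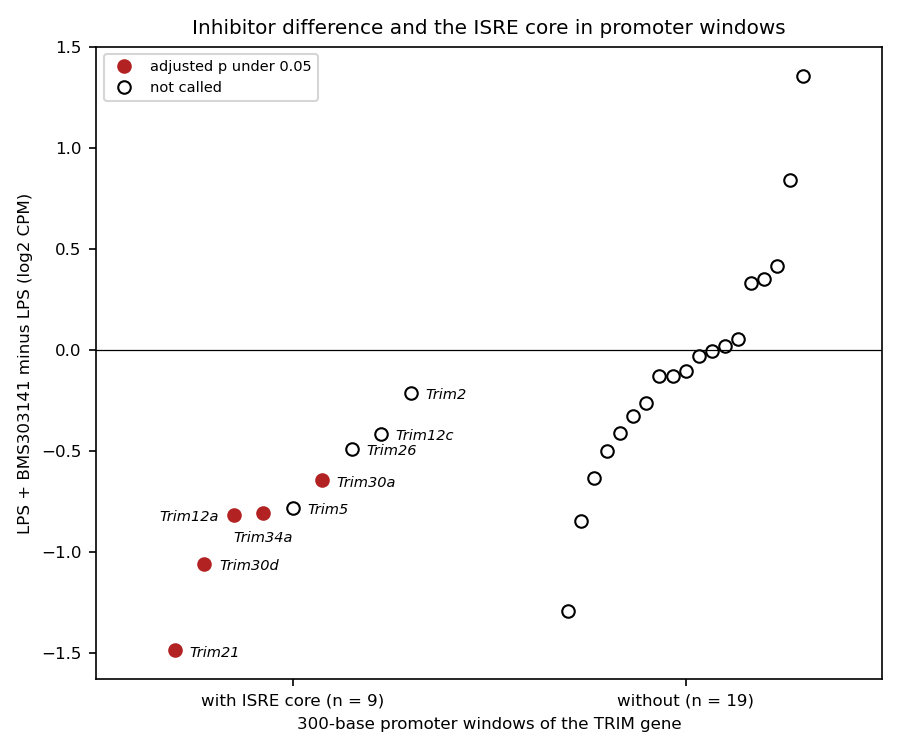
Difference in log2 CPM between LPS + BMS303141 and LPS for TRIM genes whose promoter windows do (n = 9) or do not (n = 19) hold the ISRE core, each point a gene and filled points at an adjusted p under 0.05. The 5 filled points, Trim21, Trim30d, Trim12a, Trim34a and Trim30a, are all on the left, where every gene lies below 0.

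Of 4 TRIM-type genes without a Trim symbol, Mefv, which encodes the inflammasome protein pyrin, was at 4.71 ± 0.50 log2 CPM with LPS and 1.56 ± 0.50 untreated (SD, n = 3 each), a rise of 3.15 (SE 0.29), and differed by 0.18 with the inhibitor (adjusted p = 0.814). Pml, the organiser of nuclear bodies, rose by 1.34 after LPS (SE 0.26, adjusted p = 0.000875) and differed by -0.96 with the inhibitor (adjusted p = 0.0838). Rnf135, a ligase of RIG-I, had -0.42 after LPS and -0.52 with the inhibitor, neither called, and Mid1 had 0.09 and 0.37. A partner list of 19 genes joined signalling genes around TRIM ligases with genes of the ISG15 modifier system (Isg15, Usp18, Uba7, Ube2l6 and Herc6). Of the 19, 12 rose and 2 fell after LPS (21.5% and 25.4% of all genes). The rises were led by Isg15 (4.66), Usp18 (3.82), Ifih1, which encodes MDA5 (3.22), and Herc6 (2.31). With the inhibitor 3 of the 19 were lower and none higher (1.16% and 0.959% of all genes). They were Usp18 at -1.15 (SE 0.19, adjusted p = 0.00843), Ddx58, which encodes RIG-I, at -0.92 (SE 0.18, adjusted p = 0.0163) and Herc6 at -0.88 (SE 0.18, adjusted p = 0.0190). Isg15 at -0.36 (limma, adjusted p = 0.522) and Ifih1 at -0.47 (adjusted p = 0.182) were not called, and 6 of the 19 lay above 0. Of 10 ubiquitin-conjugating enzymes 6 rose after LPS (21.5% of all genes), among them Ube2e2 (2.22, SE 0.30), Ube2v1, Ube2e1 (0.64) and Ube2d3 (0.49), and the smallest adjusted p between the LPS groups was 0.307, for Ube2e1.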

How the data were processed

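Libraries were prepared with Lexogen's QuantSeq 3′ forward kit from 100 ng of total RNA and 16 cycles of PCR, per the labels' protocols; with no molecular identifiers named, reads may be PCR copies. As tools the submitters' processing notes give STAR 2.5.2b, featureCounts 1.5.1, MultiQC, edgeR and limma, and as builds GRCm38 and mm10, without roles. Annotation release and strand setting: not given in the sources used here. Each deposited value is a score, a log2 CPM that the authors quantile-normalised, as read from the values, whose powers of 2 add up to 987472 to 987498 in all libraries. Such scaling hides a change shared by most transcripts.

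The whole table was fitted at once in limma 3.58.1 under R 4.3.3, with 1 mean per group, lmFit, eBayes(trend=TRUE) and two-sided tests. Genes entered if 3 libraries or more reached log2 CPM 0, which kept 12196 and dropped 8. P-values were adjusted by Benjamini-Hochberg over all 12196 and called under 0.05. SEs are moderated by that model, and fold changes are differences in log2 CPM. Distinct values 5 to 40 of a library gave its approximate depth. A value step counts a library's distinct values up from its lowest and is close to 1 read at low levels. The procedure was tested on simulated data. Members and gene lists were chosen with earlier results of these data known. Named with values were members called with the inhibitor, the 8 largest rises and falls after LPS, the 4 most abundant, those nearest the threshold, the interferon, PHD-bromodomain and other-name lists, and up to 4 called partners and conjugating enzymes; others were chosen after their values were seen. Promoter windows were matched by symbol to RefSeq (GRCm38.p6), and positions are from GENCODE M21 (GRCm38).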

Additional observations from a re-analysis of the deposited data

How the results depend on the processing

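The counts of called TRIM members were recomputed under 17 alternatives: a replicate block, no filter, a filter of 10 CPM (26 members and 7915 genes left), median or ribosomal protein centring, no mean trend, library weights, only the groups compared, and leaving out each of 9 libraries. No called value changed sign. For single members in LPS against untreated, LPS + BMS303141 against LPS and LPS + BMS303141 against untreated, a call was lost 34, 21 and 57 times and gained 9, 14 and 3 times, with 559, 567 and 542 verdicts unchanged. With LPS + BMS303141 against LPS (5 lower, 0 higher), library weights gave 10 lower and 2 higher, and omitting the mean trend gave 3 lower; leaving out 1 library gave 2 to 7 lower and 0 higher. It was 2 without inhibitor replicate 1 or 3, 3 without inhibitor replicate 2, LPS replicate 2 or LPS replicate 3, and 7 without untreated replicate 3. For LPS against untreated (11 higher, 7 lower), library weights gave 11 lower, and leaving out 1 library gave 8 to 10 higher and 5 to 8 lower. For LPS + BMS303141 against untreated (10 higher, 13 lower), ribosomal protein centring gave 8 lower, and leaving out 1 library gave 7 to 10 higher and 6 to 13 lower. The cause of these shifts was not tested.

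The deviations of same-numbered replicates from their group means were correlated. The values were -0.30, 0.01 and -0.15 for LPS and untreated, and 0.05, 0.17 and -0.01 for the LPS groups. For inhibitor and untreated they were 0.05, -0.02 and 0.16. With 3 libraries per group such values cannot show whether same-numbered samples were paired, and the labels do not say. With the replicate block the counts were 9 higher and 7 lower, 0 and 5, and 10 and 11 in the 3 comparisons. Depth limits Trim2, Trim7, Trim30b, Trim34b, Trim47, Trim59 and Trim68, whose values rest on a few reads.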

Other observations

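Some members were set by 1 library. Trim11 had 1.75, 3.92 and 3.78 log2 CPM in the LPS libraries, so that replicate 1, the shallowest library, stood far below the other two, while the LPS + BMS303141 libraries had 4.02, 4.10 and 3.78 and the untreated ones 3.53, 4.13 and 3.82. Trim7 had 1.75, -0.04 and -2.77 log2 CPM with LPS, where replicate 3 was at the lowest value of its library, and Trim68 had 0.31, 0.31 and -2.77 with LPS + BMS303141, where replicate 3 was at the lowest value. None of these 3 members passed the threshold in a comparison as reported, though Trim7 did for LPS against untreated with library weights or without LPS replicate 1.

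Trim35, a PRY-SPRY member, was called in LPS + BMS303141 against untreated cells and in no other comparison, with 5.29, 5.66 and 5.67 log2 CPM with LPS + BMS303141, 4.93, 5.28 and 5.17 with LPS and 5.35, 4.97 and 4.44 untreated. Its LPS + BMS303141 and untreated libraries overlapped, and the call was lost in 5 of the 17 alternatives (limma, adjusted p up to 0.118): no mean trend, and without inhibitor replicate 2 or 3 or untreated replicate 2 or 3. Trim32 (1.94, 1.61 and 1.79 log2 CPM on average in LPS + BMS303141, LPS and untreated cells) and Trim39 (3.14, 3.27 and 3.50) were called in none of the 3 comparisons, nor was Trim23. Trim5 and Trim12c share 7.76% of the 50-base stretches at their 3′ ends with each other, and for 28 of the 36 members none of these stretches occurs in another gene.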
